A study of Mus musculus with 7 samples.

Results

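RNA-seq of an F123 clone that lacked the distal Sox2 super-enhancer on its CAST chromosome, CAST-/129+, was compared with RNA-seq of wild type F123 cells (WT), which makes 2 of the 7 samples of the series. F123 is an embryonic stem cell (ESC) line from a cross of Mus musculus castaneus (CAST) and a 129 strain, so that each cell carries 1 copy of every autosome from either strain. A pair of guide RNAs and Cas9 had removed the enhancer from the CAST copy alone, and the 129 copy was left in place. The line is 1 clone, the only one of its genotype that was sequenced, and after transfection the cells had been under puromycin selection and on feeder cells before 2 passages on gelatin. RNA of WT, of CAST+/129- (deleted on the 129 copy) and of CAST-/129- (deleted on both copies) was sequenced in the same way, with 1 library each, and the values of the other clones are given beside those of CAST-/129+. The 3 clones share the WT library as their reference. As each genotype has 1 library, none of the differences could be checked in replicates, and the intervals given are exact 95% intervals of 2 counts that cover counting error only. Reads of both strains were counted together, because the deposited positions carry no bases.

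Sox2 encodes a transcription factor that, with Oct4 and Nanog, maintains the pluripotent state. A super-enhancer is a cluster of enhancers that drives a gene of cell identity, and the one studied here lies downstream of Sox2. Naive ESCs resemble the early epiblast and express Klf4, Tbx3 and Esrrb. Primed cells resemble the epiblast after implantation and express Fgf5 and Otx2. ESCs that lose Sox2 or Oct4 are known for a turn to trophectoderm, the outer layer of the blastocyst, which gives rise to the trophoblast of the placenta. Its cells express the keratins Krt8 and Krt18, and its giant cells make hormones of the prolactin family.

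The WT library held 33684661 distinct alignments and the CAST-/129+ library 8613113, of which 24848413 and 6058895 fell on genes. A distinct alignment, one position and strand however many reads stand behind it, is called a count here, and levels are given as FPKM (counts scaled to the length of unshared exons and to the library's counts on genes). CPM is the same without the length. On average 2.58 reads stood behind a count in WT and 2.03 in CAST-/129+. Of segments of 30 to 89 bases on chromosome 3, 54.7% to 57.8% had a partner of the same length 2 bases away, against 9.2% to 10.9% at 3 bases, so that counts are not independent molecules and the intervals are too narrow. In CAST-/129+ 27.9% of distinct alignments lay outside exons, against 24.8% in WT. Ratios are log2 of FPKM plus 4 over WT, which holds back genes of low level, while folds are of plain CPM. A gene is called higher or lower past 3-fold, or within 1.5-fold of WT, on that log2 ratio.

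Sox2 was read first, as a check of the label. Its level was 175 FPKM in WT (10667 counts), 82.0 in CAST+/129- (2510 counts), 73.1 in CAST-/129+ (1088 counts) and 7.40 in CAST-/129- (106 counts). CAST-/129+ thus held 41.8% of WT (95% interval 39.3 to 44.5), a log2 ratio of -1.21 that did not reach 3-fold, and lay near CAST+/129- and above the clone that lacked both copies. RNA was also read from the enhancer itself and from the sequence after it. The deleted region spans 12962 bases on chromosome 3, from 34652343 to 34665304 (mm9). On the plus strand within it WT had 163 counts (6.56 CPM) and CAST-/129+ 16 (2.64 CPM), which is 40.3% of WT (22.5 to 67.4). CAST+/129- had 108 counts there (132%, 103 to 170). CAST-/129-, which lacks both copies, still had 7 (18.3%, 7.24 to 38.6), and 9 on the minus strand (72.4%, 31.4 to 148). The source of these alignments was not tested. On the plus strand of the 15 kb after the region WT had 408 counts, CAST+/129- 150, CAST-/129+ 9 and CAST-/129- 0. CAST-/129+ thus had 9.05% of WT there (4.11 to 17.3), CAST+/129- had 73.3% (60.4 to 88.6), and CAST-/129- had 0% (0 to 3.87). Over these 15 kb the clone with its 129 copy of the enhancer had little of this RNA, and the clone with its CAST copy had most of it. In CAST+/129- the RNA lay near the region, with 90.7% of WT (74.0 to 111) in the first 10 kb and 63.9% (53.4 to 76.0) over 30 kb. In the bins 21, 23 and 25 kb from the start of the deletion WT had 23, 26 and 22 counts. There CAST+/129- had 0, 3 and 0 and CAST-/129+ had 0, 3 and 2, so that farther out the clones did not differ in this way. On the minus strand, the 15 kb before the region, the region and the 15 kb after it held 22, 53 and 26 counts in WT and 24, 22 and 14 in CAST-/129+. As CPM these are 447% (240 to 837), 170% (98.6 to 285) and 221% (107 to 439) of WT, and the interval within the region includes the WT level.

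**Figure D1:**
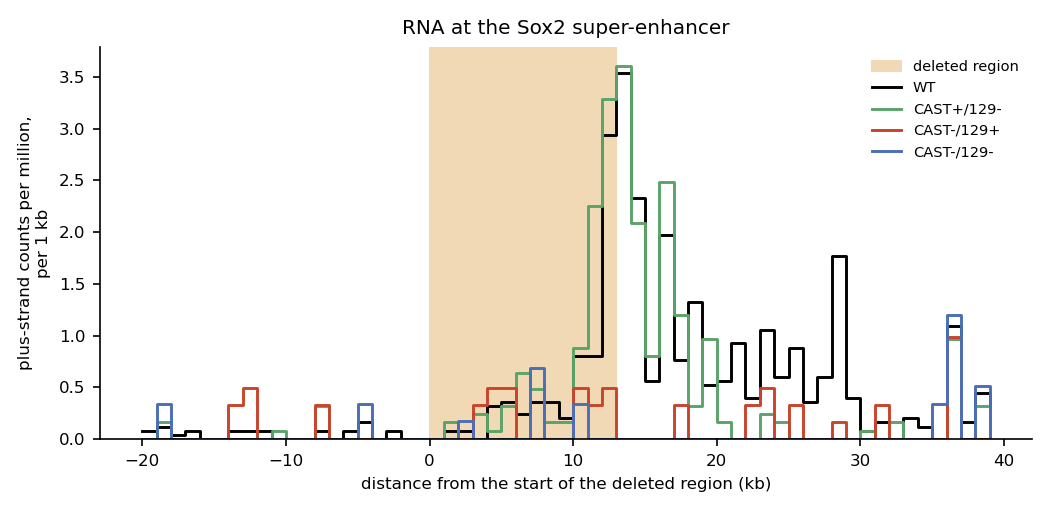
Plus-strand RNA in bins of 1 kb around the deleted region (shaded), in CPM, against distance from the start of the deletion in kb, with 1 line for each of the 4 libraries. WT and CAST+/129- share a peak at the end of the region and after it, where the CAST-/129+ line holds 9 counts in 15 kb and the CAST-/129- line 0.

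Of 31498 genes, 149 were at least 3-fold higher in CAST-/129+ than in WT, 0.473% of the genes, and 104 were at least 3-fold lower, 0.33%. Of the genes higher, 98 had under 5 FPKM in WT, and the median went from 2.58 FPKM in WT to 32.2 FPKM in the clone. Genes lower had a median of 26.1 FPKM in WT and 3.06 FPKM in the clone. When every read was counted instead of distinct alignments, 133 of the 149 and 64 of the 104 stayed past 3-fold. When WT reads were thinned to the number in CAST-/129+, 145 and 81 stayed. Counting every read moved the median ratio of genes with at least 5 FPKM up by 0.07, and 148 genes were then past 3-fold higher and 83 lower. Thinning moved it up by 0.09, with 164 genes higher and 83 lower. With library sizes of all alignments, which moved it by -0.05, 111 genes were past 3-fold higher and 82 lower. Just inside the threshold stood Cdh2, Gm12617 and Psme2 (log2 ratio 1.59 each) and just outside it a U3 gene, AC156953.1 and Gsc (1.57 to 1.58). On the lower side B4galnt4, Atp2a3 and Slc1a5 (-1.62 to -1.59) were just inside, and Gm10557, Anpep and Mme (-1.58 each) just outside.

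**Figure D2:**
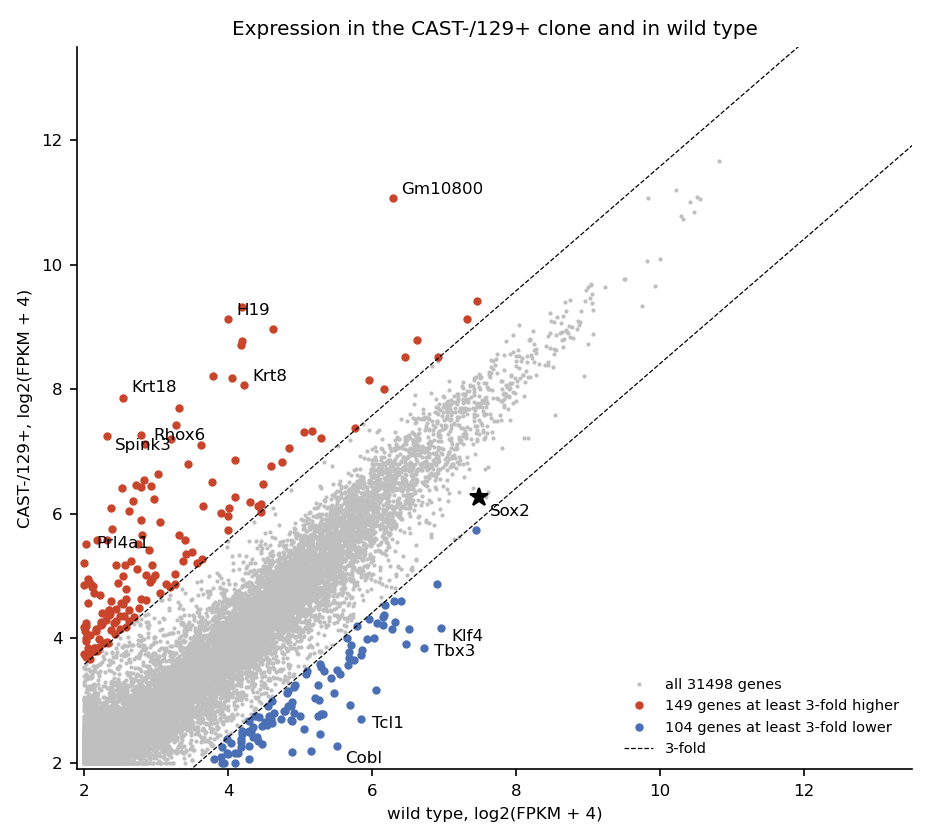
Level of 31498 genes in WT (horizontal) and in CAST-/129+ (vertical), both as log2 of FPKM plus 4, with dashed lines at 3-fold. The 149 genes higher lie mostly at the left, where WT has little of them, and the 104 genes lower start from higher WT levels. Sox2 (star) lies between the lines, at 175 FPKM in WT and 73.1 in CAST-/129+.

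Trophectoderm genes gave the most calls on the higher side of the 20 lists, which were chosen with earlier results of these data known. Of 22 trophectoderm genes on the list 10 were past 3-fold higher and 0 lower, and the median log2 ratio was 1.24, against 0.0 over all genes and -0.08 over the 13805 genes with a mean of at least 1 FPKM. At least 1.5-fold higher were 17 of the 22, and 1 was at least 1.5-fold lower, Tead4 (log2 ratio -0.65), while Phlda2 stood at -0.44. In CAST+/129- 10 of the 22 were past 3-fold higher and in CAST-/129- 12. Krt18, a keratin of simple epithelia, had the largest ratio of all genes. It had 63 counts in WT (1.81 FPKM) and 1946 in CAST-/129+ (229 FPKM), 127-fold (98.6 to 166), with 133 FPKM in CAST+/129- and 231 in CAST-/129-. Its partner Krt8 had 14.6 FPKM in WT and 264 in CAST-/129+ (18.1-fold, 16.6 to 19.8). All 3 clones were above WT for both keratins. Krt19 was 29.4-fold higher (24.1 to 36.2) and Krt7, which had 3 counts in WT, 782-fold (266 to 3803). Of 46 keratin genes measured these 4 were the ones called. Hand1, a transcription factor of trophoblast giant cells, had 0.524 FPKM in WT and 43.8 in CAST-/129+ (83.6-fold, 56.4 to 129). Eomes, a regulator of trophoblast stem cells, had 3.89 and 28.3 FPKM, and was past 3-fold in neither of the other clones, at 18.3 FPKM in CAST+/129- and 13.1 in CAST-/129-. Plac1, a placental gene of the X chromosome, had 2 counts in WT and 102 in CAST-/129+. Sct, Id2 and Peg10 were the other members called. Cdx2, which specifies the trophectoderm, stayed low, with 0.0712 FPKM in WT and 1.09 in CAST-/129+, and Gata3 had 0.144 and 3.22 FPKM. Elf5, a factor of trophoblast stem cells, had 0.0274 and 4.27 FPKM.

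Outside the list, and named after their values were seen, the placental homeobox gene Rhox6 had 80 counts in WT and 828 in CAST-/129+ (42.4-fold, 33.7 to 54.1), and Rhox9 had 0.95 and 43.8 FPKM. They were the only 2 of 30 Rhox genes called. Serpinb9e, a placental serpin, had 7 counts in WT and 121 in the clone (log2 ratio 1.80, but 1.52 with every read counted). Nrk, a kinase gene of the X chromosome known for its role in the placenta, was 70.6-fold higher (56.4 to 89.7). All 4 were also past 3-fold in CAST+/129-, where the Rhox genes summed to 197 FPKM and the Serpinb9 genes to 37.6, beside 200 and 39.2 in CAST-/129+. Rhox6, Rhox9 and Nrk were past 3-fold in CAST-/129-, while Serpinb9e, at 4.74 FPKM and a log2 ratio of 1.08, was not. Of 28 Ceacam and Psg genes 0 were past 3-fold, and they summed to 31.9 FPKM in WT and 9.19 in CAST-/129+, and of 9 placental Cts genes 0 were past 3-fold, with 0.445 and 2.92 FPKM in all.

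The prolactin family had more calls in CAST-/129+ than in either other clone. The family lies on chromosome 13, with Prl2c2, Prl2c3 and Prl2c5 apart from the other 22 members, and is transcribed by trophoblast cells, and Prl3d1 encodes placental lactogen I, the hormone of the early giant cell. Of 25 members measured, 16 had a count in CAST-/129+ and 5 in WT, and 7 were past 3-fold higher. The family summed to 37 counts in WT (1.67 FPKM), 209 in CAST+/129- (18.6 FPKM), 1224 in CAST-/129+ (222 FPKM) and 420 in CAST-/129- (82.5 FPKM). In CAST-/129- 3 members were past 3-fold and in CAST+/129- 0. Over all genes 0.819% were past 3-fold higher in CAST-/129- and 0.321% in CAST+/129-. Prl3d1 had 0 counts in WT, 10 in CAST+/129-, 129 in CAST-/129+ (25 FPKM) and 0 in CAST-/129-, which is at least 176-fold higher than WT when 3 counts are taken as the limit of a count of 0. Prl4a1 had 1, 24, 219 and 0 counts in the same order, and Prl7a1 2, 7, 88 and 4. Prl7d1 had 3, 9, 60 and 7 counts, and its log2 ratio of 1.66 became 1.36 with every read counted. With library sizes of all alignments Prl7a1 and Prl7d1 also fell short of 3-fold (log2 ratios 1.36 and 1.33). These 4 genes were at 1.08 FPKM or less in the clone that lacked both enhancers. Prl2c3 had 25, 66, 331 and 223 counts, Prl2c2 6, 43, 125 and 112, and Prl2a1 0, 31, 177 and 56. Prl2c3 and Prl2c2, which encode proliferins, were above WT in all 3 clones, at 6.23 and 4.06 FPKM in CAST+/129-, beside 1.18 and 0.284 FPKM in WT, at 64.3 and 24.3 FPKM in CAST-/129+ and at 45.0 and 22.6 FPKM in CAST-/129-. Prl3d2 and Prl3d3 are close copies of Prl3d1 and had 18 and 12 counts in CAST-/129+ and 0 in each other library. Reads may be split among such copies by the mapping, so that the single members are less certain than the sum.

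**Figure D3:**
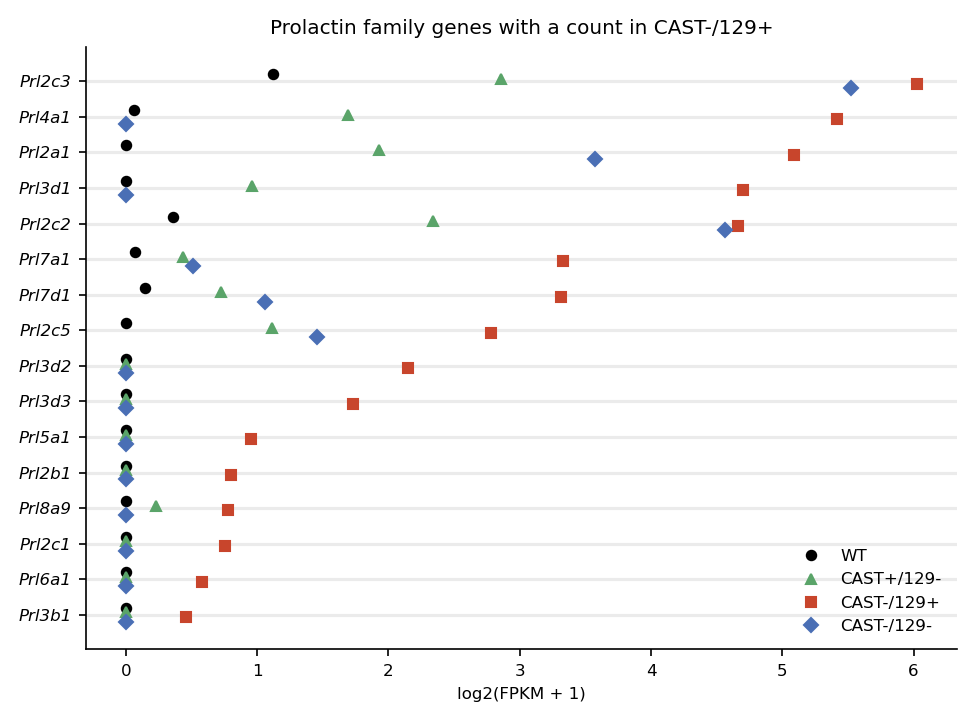
Level of the 16 prolactin family genes with a count in CAST-/129+, as log2 of FPKM plus 1, in the 4 libraries. The genes shown are those with a count in CAST-/129+ (squares), which leaves out Prl3a1 and Prl8a8, with 4 and 2 counts in CAST-/129- alone. For Prl4a1 and Prl3d1 the CAST-/129- library (diamonds) lies at 0.

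The 250 bases before the starts of the 4 prolactin genes that were past 3-fold in CAST-/129+ and within 1.5-fold of WT in CAST-/129- are shown because these genes share a locus and a pattern. The sequences are from RefSeq (GRCm38.p6, chromosome 13), 5′ to 3′ on the strand of the gene. Capitals mark the core that GATA factors bind, GATAA, on either strand, so that it may also be printed as its reverse complement. They also mark TGANTCA, a pattern looser than the AP-1 element that it includes, and one that reads the same on both strands. The motifs share no bases in these windows. Both kinds of factor are known to act on the promoter of Prl3d1. The windows are chr13:27093939-27094188 (plus strand), chr13:28015962-28016211 (plus), chr13:27642494-27642743 (minus) and chr13:27716738-27716987 (minus) in the order below.
Prl3d1: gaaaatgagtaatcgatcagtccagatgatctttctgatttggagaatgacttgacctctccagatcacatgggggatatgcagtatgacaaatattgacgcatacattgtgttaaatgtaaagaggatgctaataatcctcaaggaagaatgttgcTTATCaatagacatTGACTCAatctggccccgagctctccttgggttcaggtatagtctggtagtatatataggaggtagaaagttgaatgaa
Prl4a1: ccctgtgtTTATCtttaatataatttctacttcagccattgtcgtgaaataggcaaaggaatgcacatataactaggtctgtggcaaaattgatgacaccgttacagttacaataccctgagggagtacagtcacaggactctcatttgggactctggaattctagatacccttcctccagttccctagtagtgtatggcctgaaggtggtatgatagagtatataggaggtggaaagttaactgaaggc
Prl7a1: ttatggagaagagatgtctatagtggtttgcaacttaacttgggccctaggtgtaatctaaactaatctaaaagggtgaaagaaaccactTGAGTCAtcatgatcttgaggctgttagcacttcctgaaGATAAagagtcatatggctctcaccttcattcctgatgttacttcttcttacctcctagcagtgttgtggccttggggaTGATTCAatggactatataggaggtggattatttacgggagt
Prl7d1: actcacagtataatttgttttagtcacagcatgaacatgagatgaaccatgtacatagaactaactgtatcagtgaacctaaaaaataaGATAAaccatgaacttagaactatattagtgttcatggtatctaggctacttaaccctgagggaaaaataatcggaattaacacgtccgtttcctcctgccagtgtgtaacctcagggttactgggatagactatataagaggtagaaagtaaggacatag

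Each of the 4 windows held GATAA once, and those of Prl3d1 and Prl7a1 also held TGANTCA. Among all 32851 windows of this length, 22.6% held GATAA, 6.7% held TGANTCA and 2.0% held both. Of the 21 family members with a window 13 held GATAA, 7 held TGANTCA and 6 held both. The family arose by gene duplication, so that its windows are related and these counts are a description of them. In the WT cells, none of the 25 family starts had H3K4me3 or H3K27ac of 5-fold over the genome mean within 1 kb.

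Genes past 3-fold in CAST-/129+ but within 1.5-fold of WT in CAST-/129- numbered 9 on the higher side (0.0286% of genes) and 1 on the lower side (0.00317%). Beside Prl4a1, Prl3d1, Prl7a1 and Prl7d1 they were Tmprss2, Clic6, Apob, a 7SK gene of the X chromosome and the pseudogene Gm12617. Tmprss2, a serine protease of epithelial surfaces, had 0.229 FPKM in WT, 2.44 in CAST+/129-, 12.6 in CAST-/129+ and 2.28 in CAST-/129-, with a fold of 54.9 (34.0 to 94.2). Apob, the structural protein of lipoproteins made by liver, gut and yolk sac, had 0.373, 0.156, 10.3 and 0.837 FPKM, with a fold of 27.8 (23.0 to 33.7), and its log2 ratio of 1.71 became 1.45 with every read counted. Clic6, a chloride channel protein, had 3.26, 0.246, 20.4 and 3.29 FPKM. For these 3 genes CAST-/129+ stood apart from all other libraries, which lay between 0.156 and 3.29 FPKM. Gm12617 had 2 counts in WT and 20 in CAST-/129+, but 148 in CAST+/129-. With library sizes of all alignments Clic6, Apob and Gm12617 fell short of 3-fold (log2 ratios 1.52, 1.4 and 1.28). The gene on the lower side was Nupr1, a stress-response gene, with 14.2 FPKM in WT, 2.42 in CAST+/129-, 1.68 in CAST-/129+ and 9.37 in CAST-/129-, and its log2 ratio of -1.68 became -1.57 with every read counted. No gene was past 3-fold in opposite directions in CAST-/129+ and CAST-/129-.

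With 3-fold as the limit in each clone, 111 of the 149 genes higher were also past it in CAST-/129- and 73 in CAST+/129-, while 32 were past it in CAST-/129+ alone. Of the 104 genes lower 72 were also past it in CAST-/129- and 66 in CAST+/129-, with 13 in CAST-/129+ alone. Over all genes 0.511% were past 3-fold lower in CAST-/129- and 0.305% in CAST+/129-. These clones are read against the same WT library, so that an error in that library is common to all of them. Of the 149 genes, 23 had a ratio at least 3-fold above that of CAST+/129-, and 7 at least 3-fold above that of CAST-/129-. Among the 23 was Spink3, a trypsin inhibitor, with 0.954 FPKM in WT, 5.33 in CAST+/129-, 149 in CAST-/129+ and 38.6 in CAST-/129-. Cyp26a1, the enzyme that degrades retinoic acid, had 2.91, 3.4, 55.8 and 19.3 FPKM. Amot, which encodes the Hippo pathway scaffold angiomotin, had 8.48, 3.43, 66.2 and 38.4 FPKM. Irs4, Dgkk, Sfrp5, Podxl and Gpc3 had the same order, with CAST-/129+ highest, CAST-/129- next, and CAST+/129- near WT (log2 ratios -0.04 to 0.18). Podxl, a sialomucin of epithelia, had 12, 12, 58.6 and 20.6 FPKM in the order above. Gpc3, a glypican, had 6.31, 7.70, 33.9 and 12.1 FPKM.

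**Figure D4:**
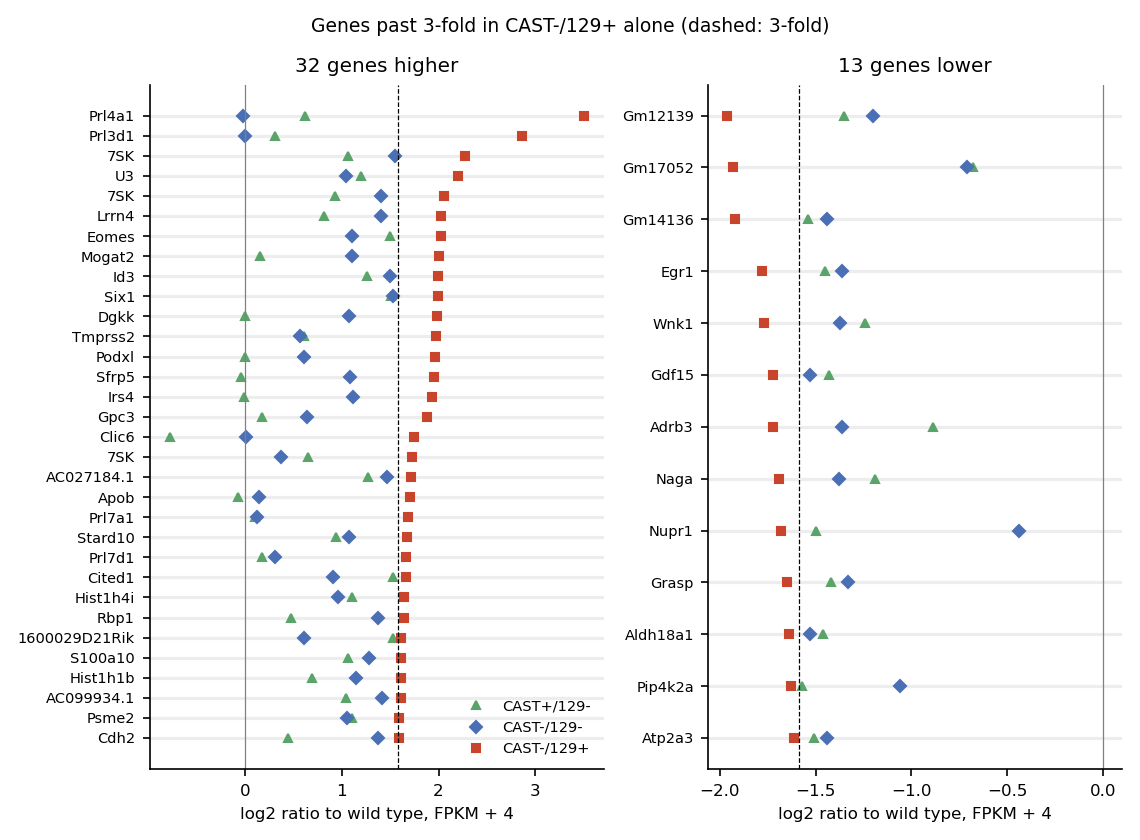
The 32 genes higher (left) and 13 genes lower (right) that passed 3-fold (dashed) in CAST-/129+ alone, with log2 ratio to WT in each of the 3 clones on the horizontal axis. Prl4a1 and Prl3d1 lie farthest from the other clones, Clic6 lies below WT in CAST+/129- (-0.77), and many of the rest lie just short of 3-fold in 1 of the other clones.

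Of 18 primed epiblast genes measured 7 were past 3-fold higher and 0 lower, with a median log2 ratio of 1.4. At least 1.5-fold higher were 14, while Zic2 and Sox4 lay slightly below WT (log2 ratios -0.22 and -0.19). Fgf5, a growth factor of the epiblast after implantation, had 8 counts in WT and 408 in CAST-/129+ (26.9 FPKM), a fold of 209 (105 to 488), with 4.01 FPKM in CAST+/129- and 24.5 in CAST-/129-. Cldn6, a tight-junction protein of early epithelia, had 1.76 FPKM in WT and 81.8 in CAST-/129+ (46.4-fold, 36 to 60.6). Otx2, a transcription factor of the primed state, had 3.20 and 28.3 FPKM. Cd24a, Epcam, Enpp3 and Cdh2 were the other members called, and Cdh2 fell short with every read counted (log2 ratio 1.4). Dnmt3b, a DNA methyltransferase, had 47.4 and 142 FPKM and a log2 ratio of 1.51, just short of 3-fold, and Lef1 had 0.0651 and 6.81 FPKM.

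Of 23 primitive streak and mesoderm genes 5 were past 3-fold higher, with a median of 0.60, against 0 in CAST+/129- and 8 in CAST-/129-. The list also held 2 genes at least 1.5-fold lower, Cdx1 (4.23 and 0.472 FPKM) and Mesp2 (121 counts in WT and 0 in CAST-/129+). Lhx1, a homeobox gene of the streak and its derivatives, had 5 counts in WT, 6 in CAST+/129-, 373 in CAST-/129+ and 248 in CAST-/129-. Cer1, a secreted Nodal and BMP inhibitor, had 2, 3, 151 and 379 counts. Fgf8, a growth factor that cells of the streak need to migrate, had 4, 17, 160 and 169. In CAST+/129- these 3 genes were at 1.01 FPKM or less, and in both clones without the CAST enhancer at 10.3 FPKM or more. T (Brachyury) had 0.418, 3.16, 10.3 and 36.3 FPKM, with a log2 ratio of 1.69 that became 1.47 with every read counted. Lefty1, a Nodal inhibitor, had 6.5 FPKM in WT and 43.9 in CAST-/129+. Gsc lay just outside the threshold, and the list members Mesp1, Tbx6 and Msgn1 had 0.388 FPKM or less in CAST-/129+. Of 17 genes of ectoderm and neural tissue 1, Gap43, was past 3-fold (0.898 and 15.7 FPKM), and Neurog2, Olig2 and Hes5 had 0 counts in CAST-/129+.

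Of the 20 lists, naive pluripotency genes had the lowest median. Of 21, 6 were past 3-fold lower, 17 were at least 1.5-fold lower, and 1, Dppa3, was past 3-fold higher, with a median log2 ratio of -1.25. Tcl1, a coactivator of the kinase Akt, had 53.5 FPKM in WT, 5.6 in CAST+/129-, 2.49 in CAST-/129+ and 2.22 in CAST-/129-, so that CAST-/129+ held 4.66% of WT (2.87 to 7.14). Tbx3, a T-box factor, had 101, 18.6, 10.4 and 10.4 FPKM, and Klf4, a factor that binds naive gene promoters, had 120, 19.3, 13.9 and 8.29 FPKM. Tcfcp2l1, another naive factor, had 86.7 FPKM in WT and 13.8 in CAST-/129+, and Nr0b1 had 46.7 and 7.94. Tet2, which oxidizes 5-methylcytosine, had 53.3 and 9.27 FPKM. In each of these 6 genes all 3 clones were below WT, and the call held with every read and with WT thinned. Esrrb (89.9 and 31.4 FPKM), Klf5 (188 and 73.1) and Zfp42 (185 and 101) were lower without reaching 3-fold. Dppa3, a maternal factor that is also expressed in naive cells, went the other way, with 6.86 FPKM in WT, 89.4 in CAST+/129-, 108 in CAST-/129+ and 31.1 in CAST-/129-.

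Core pluripotency genes did not pass 3-fold, and went both ways. Of 18, 2 were at least 1.5-fold higher and 4 at least 1.5-fold lower, Sox2 among the latter, and the median was 0.03. The 18 genes summed to 1850 FPKM in WT and 1876 in CAST-/129+. With every read counted the sums were 2816 in WT and 2427 in CAST-/129+, and with WT thinned 2008 and 1876. Either way 3 members were at least 1.5-fold higher and 2 at least 1.5-fold lower. Pou5f1 (Oct4) had 188 FPKM in WT and 207 in CAST-/129+, Utf1 had 211 and 226, and Nanog had 130 and 76.5. The defining genes of the label were thus all present, with Pou5f1 near its WT level, Nanog at 58.8% of WT and Sox2 at 41.8%, while 17 of the 21 naive genes were at least 1.5-fold lower. Lin28a, an RNA-binding protein, had 39.3 and 105 FPKM (log2 ratio 1.33). The 11 genes of Polycomb repressive complex 2 had a median of -0.39 and 0 calls, with Suz12 at 87.7 FPKM in WT and 64.2 in CAST-/129+. Of 18 genes on the list of Sox factors, 0 were past 3-fold. Sox11, a factor of the primed epiblast and neural progenitors, had 3.38 and 12.9 FPKM.

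Other lower genes included germline and primitive endoderm genes. Of 26 germline genes 3 were past 3-fold lower and 0 higher (median -0.37). At least 1.5-fold lower were 9, and 2 were at least 1.5-fold higher, Tdrd12 (log2 ratio 1.52) and Tex101 (0.69). With WT thinned Tdrd12 was past 3-fold higher (1.63). Stra8, which starts meiosis, had 62.4 FPKM in WT and 5.04 in CAST-/129+, Dazl, an RNA-binding protein of germ cells, had 73.4 and 13.7, and Sohlh2 had 68.1 and 19.3. Of 21 primitive endoderm genes 3 were lower and 0 higher (median -0.48), namely Gata6 (42.9 and 6.77 FPKM), Pdgfra (22.6 and 2.55) and Lama1 (80.3 and 20.3). Gata4 had 17.4 and 13 FPKM and Sox17 had 4.73 and 6.54 FPKM, both short of 3-fold. At least 1.5-fold lower were 7 of the 21, and 2 were at least 1.5-fold higher, Afp (log2 ratio 0.82) and Apoa1 (0.83). Outside the lists, the largest ratio on the lower side was that of Cobl, an actin nucleator, which had 41.4 FPKM in WT and 0.811 in CAST-/129+, 1.96% of WT (1.4 to 2.67). Inhbb, a subunit of activin B, had 31.3 FPKM in WT, 1.89 in CAST+/129-, 0.582 in CAST-/129+ and 12.7 in CAST-/129-, and was the 1 lower gene whose ratio lay at least 3-fold beyond that of CAST-/129-. H2-Eb1, Triml1, Igsf21, Gm7325, Ly75 and Gm15055 completed the 12 largest, with log2 ratios of -2.81 to -2.51. The X-linked genes Xlr5a, Xlr5b and Xlr5c, which are near-copies of one another, had 431, 473 and 456 counts in WT and 2, 3 and 0 in CAST-/129+, and all 3 fell short of 3-fold with every read counted (log2 ratios -1.50 to -1.44).

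Genes of the amino acid response, which ATF4 switches on when amino acids run short, were lower together. Of 32, 10 were past 3-fold lower and 0 higher, 21 were at least 1.5-fold lower and 0 at least 1.5-fold higher, with a median of -0.89. Pck2, a mitochondrial enzyme that makes phosphoenolpyruvate, had 40.1 FPKM in WT and 4.66 in CAST-/129+ (11.6% of WT, 9.39 to 14.2). Chac1, which degrades glutathione, had 20.4 and 2.22 FPKM, and Cth, which makes cysteine, 57.0 and 11.9. The amino acid transporters Slc7a1 (54.1 and 10 FPKM) and Slc7a5 (169 and 49.2) were lower as well. Atf4 itself had 151 and 92.0 FPKM (log2 ratio -0.69). The other clones lay on the same side, with 6 of 32 past 3-fold lower in each. On the higher side, 3 of 31 glycolysis and hypoxia genes were past 3-fold, the mitophagy receptor Bnip3 (1.92 and 32.2 FPKM), the lactate exporter Slc16a3 (1.14 and 20.3) and the glycolytic enzyme Tpi1 (35.1 and 145), and Ldha had 92.4 and 236. The list's median was 0.54, and 5 members were at least 1.5-fold lower, among them Ak4 (39.2 and 10.9 FPKM, log2 ratio -1.54) and Vegfa (34.5 and 9.73 FPKM, -1.49). Culture density and medium at harvest are not given per library, and their part in these values was not tested.

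Contractile, matrix and imprinted genes held calls on the higher side. With every read counted 1 matrix gene was past 3-fold lower, Fn1, which encodes fibronectin (191 and 104 FPKM, log2 ratio -0.85, and -1.66 with every read). Of 28 actin and contractile genes 7 were past 3-fold higher (median 0.88). Tagln, an actin-binding protein of smooth muscle, had 4.09 FPKM in WT, 70.0 in CAST+/129-, 95.3 in CAST-/129+ and 164 in CAST-/129-, and Acta2, smooth muscle actin, had 3.57, 73.7, 82.8 and 181. Cnn2, Myl9, Tpm1, Tpm2 and Csrp1 were the others. Of 35 fibroblast and matrix genes 6 were past 3-fold and 20 at least 1.5-fold higher (median 0.78), against 29 of 35 in CAST-/129-, and the list summed to 341 FPKM in WT, 646 in CAST+/129-, 579 in CAST-/129+ and 1962 in CAST-/129-. Col1a1, the main collagen of connective tissue, had 3.48, 39.0, 38.9 and 174 FPKM. The list also held 2 genes at least 1.5-fold lower, among them the fibroblast marker Thy1 (log2 ratio -0.59). The fibroblast markers Lum, Dcn and Prrx1 had 0, 3 and 23 counts in WT and 2, 16 and 72 in CAST-/129+. On plain CPM Prrx1 was 12.8-fold (7.93 to 21.5) and Dcn 21.9-fold (6.26 to 117) of WT, at 1.07 and 1.36 FPKM. Lyz2, a lysozyme of macrophages, was the 1 of 14 macrophage genes past 3-fold, with 0, 191, 112 and 731 counts, and the list summed to 13 FPKM in WT and 33.1 in CAST-/129+. The clones had been on feeder cells, and the part of other cell types in the contractile and matrix genes was not tested. In bulk RNA more cells of a type and more RNA per cell cannot be told apart. Of 36 imprinted genes 6 were past 3-fold higher and 0 lower (median 0.36). H19, a long non-coding RNA expressed from the maternal copy, had 11.9 FPKM in WT, 571 in CAST+/129-, 554 in CAST-/129+ and 589 in CAST-/129-, and its neighbour Igf2, a growth factor expressed from the paternal copy, had 1.44, 3, 32.4 and 71.0. H19 was thus past 3-fold in all 3 clones, and Igf2 in both clones without the CAST enhancer. Cdkn1c, Peg3, Peg10 and Nnat were the other imprinted genes called.

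**Figure D5:**
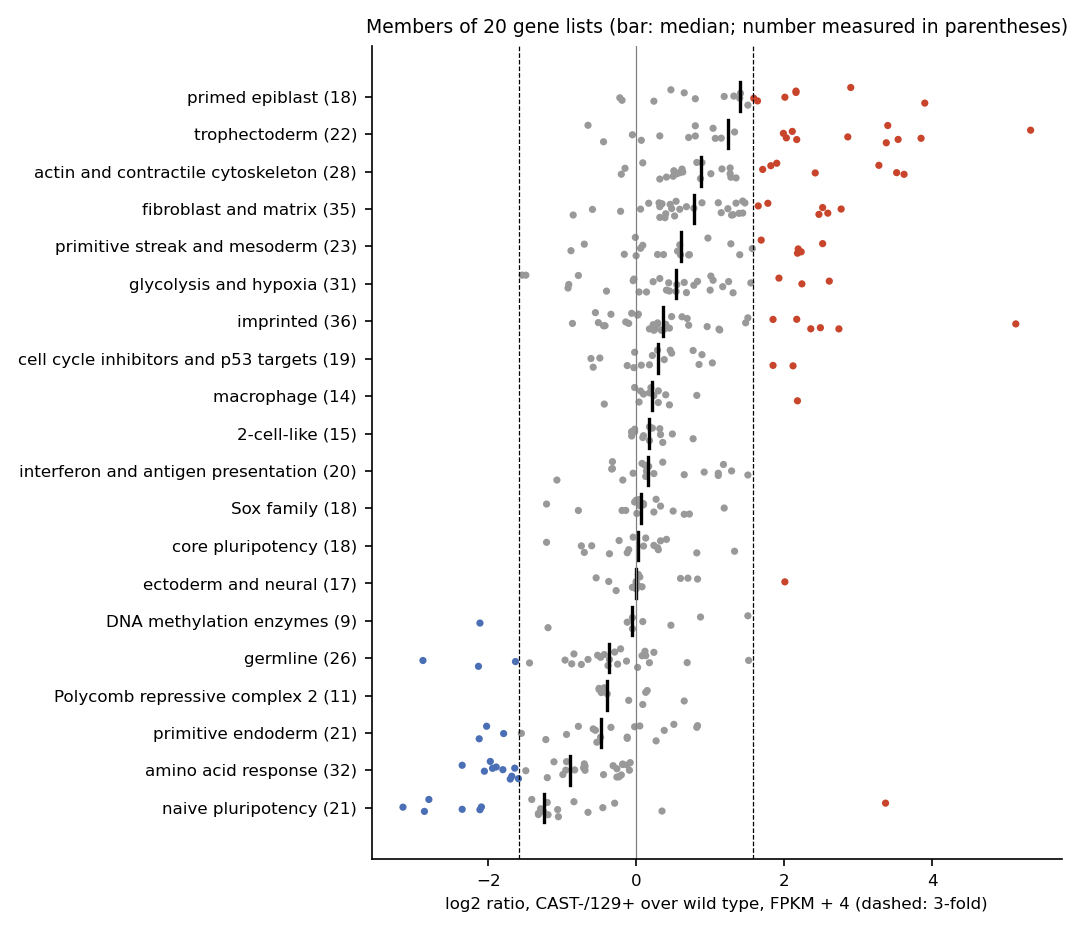
Log2 ratio of CAST-/129+ over WT for each measured member of 20 gene lists, ordered by their median (bar), with members past 3-fold (dashed) in color. Primed epiblast (median 1.4) and trophectoderm (1.24) lie highest, and naive pluripotency (-1.25) and amino acid response (-0.89) lowest. Core pluripotency (0.03) lies at the center with no member past 3-fold.

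The remaining lists held few calls. Of 9 DNA methylation enzymes 1 was lower (Tet2), and of 19 cell cycle inhibitors and p53 targets 2 were higher, the keratinocyte 14-3-3 protein Sfn (10.9 and 60.8 FPKM) and Cdkn1c (2.92 and 20.9). Of 15 genes of the 2-cell-like state and 20 of interferon and antigen presentation 0 were past 3-fold, with medians of 0.18 and 0.16. The 10 other genes within 1 Mb of Sox2 had log2 ratios from -0.83 (Gm9791, 144 counts in WT and 15 in CAST-/129+) to 0.30 (Fxr1), and 0 of them were past 3-fold. Sox2ot, a non-coding RNA that overlaps Sox2, had 144 and 22 counts, at 0.678 and 0.425 FPKM.

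Some of the largest ratios belonged to annotations whose reads cannot be placed with certainty. Gm10800 and Gm10801 on chromosome 2 and 13 Gm genes in the first sequenced bases of chromosome 9 (3000282 to 3038316, mm9) lie in satellite-like repeats, and 47.0% to 99.1% of their 25-base words also occurred in another of them. All 15 were past 3-fold higher, the 13 of chromosome 9 together from 96.9 CPM in WT to 2830 CPM in CAST-/129+, with 1811 in CAST+/129- and 1194 in CAST-/129-. Some non-coding RNAs went the same way. Counts on 7SK genes were 43.0 CPM in WT and 193 in CAST-/129+, those on U3 genes 30.5 and 129, and the RNA of mitochondrial ribosomes 0.257% and 0.566% of counts. Lars2 and Gm15564 (log2 ratios 1.81 and 1.97) fell to 1.1 and 1.22 when WT was thinned. In the H3K27ac library of WT cells, read with no input, the starts of Gm10801 and Gm10800 had 337-fold and 491-fold the genome mean. The start of Gm10721 had 0. Without an input the mark and the placing of reads cannot be told apart there. The part of the placing of reads and of poly(A) selection in the RNA values was not tested. Without these 15 genes and the classes of small RNA and of mitochondrial ribosomal RNA, 126 genes were past 3-fold higher and 104 lower.

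Levels were also set against position. Over 9575 genes with a mean of at least 5 FPKM the median log2 ratio was -0.07, and on the autosomes other than 8 it lay between -0.11 and 0.0. On chromosome 8 it was -0.36, over 541 genes, of which 80.2% were below WT, against 56.1% of all 9575. It was -0.33 with every read counted, -0.31 with WT thinned, -0.30 in CAST-/129- and 0.06 in CAST+/129-. Over all 9575 genes the medians were 0.0, 0.02, -0.11 and -0.01 in the same order. Of these chromosome 8 genes 10 were past 3-fold lower and 1 higher, and 1 FPKM as the minimum gave 10 and 2. Of all 9575 genes 104 were past 3-fold lower and 144 higher. The 10 are 1.85% of the chromosome's genes. On the other autosomes the share lower ran from 0.225% (chromosome 10) to 2.05% (chromosome 3), with 1.83% on chromosome 13. The number of chromosome 8 copies in these cells was not measured here, and its part was not tested. Without the genes of chromosome 8, 147 genes were past 3-fold higher and 94 lower. The 14 mitochondrial genes had a median of 0.41, which became -0.26 with every read counted.

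Chromatin of WT F123 cells was read at the starts of the called genes, as a measure that did not enter their choice. H3K4me3 marks active and poised promoters, and H3K27ac marks active ones. Enrichment is the density of 5′ ends within 1 kb of the annotated start over the genome mean of the library, with no input. The H3K4me3 library held 7108751 distinct alignments and the H3K27ac library 1576875, so that low H3K27ac values rest on few alignments. H3K4me3 of at least 5-fold was found at 64.4% of the 104 genes lower, 47.7% of the 149 genes higher and 40.7% of all genes tested. H3K27ac of at least 5-fold was found at 58.7% of the genes lower, 26.8% of the genes higher and 28.7% of all genes tested. Of the genes higher, 15 are the satellite-like genes, of which 14 passed 5-fold for each mark, and without them 42.5% of 134 had H3K4me3 and 19.4% had H3K27ac, shares computed after the values were seen. Marks go with level, and against the 12322 protein-coding genes with a mean of at least 1 FPKM, of which 80.9% had H3K4me3 and 60.4% H3K27ac, the 96 protein-coding genes lower had 68.8% and 62.5%. Among protein-coding genes with under 5 FPKM in WT, 40.2% of the 97 genes higher had H3K4me3 and 13.4% had H3K27ac, beside 29.9% and 12.3% of all 13170 such genes. Cobl (19.6-fold H3K4me3 and 74.9-fold H3K27ac), Tbx3 (24.8 and 83.3) and Klf4 (32.1 and 42.1) carried both marks in WT. Lhx1 (9.33 and 1.68), Fgf5 (7.47 and 0.841) and Eomes (10.8 and 2.52) passed 5-fold for H3K4me3 alone, with H3K27ac values that rest on few alignments. Krt18 and Krt8 (2.05-fold H3K4me3 each) and Spink3 (0.373) carried neither at their starts.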

How the data were processed

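Per the study's methods, the authors made strand-specific dUTP libraries from poly(A)-selected RNA, sequenced both ends (100 bases each) and mapped them to mm9 with Novoalign and USeq. The submitters' processing notes name Bowtie for ChIP-seq. The deposited RNA-seq files list alignment positions and strands, 1 line for each distinct segment with the count of reads behind it, and hold no normalization by the authors. Depth was 33684661 distinct alignments in WT and 8613113 in CAST-/129+.

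Distinct alignments were counted on unshared exonic bases of GENCODE M1 genes, on the transcript strand, for the 31498 of 37310 genes with at least 200 such bases with numpy 2.4.6 and pandas 2.3.3 under Python 3.11.15. Intervals were from scipy 1.17.1 and figures from matplotlib 3.10.9. Ratios are log2 of FPKM plus 4. With 1 library a genotype no test was run, and called means past 3-fold. The 3-fold call and the intervals were tried on simulated counts drawn independently for each gene. That does not test the counting of alignments, nor intervals of counts that are not independent.

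Named genes are Sox2, the 12 largest ratios each way, up to 10 each way that were within 1.5-fold of WT in CAST-/129-, members of each list past 3-fold (up to 6) with its defining genes, genes within 1 Mb of Sox2, and the 3 genes on either side of the threshold. Others are named after their values were seen. Of 446 list symbols 434 were measured. The genes and lists were chosen with earlier results of these data known. Promoter enrichment used the deposited ChIP-seq positions of WT cells. Alternatives were other library sizes, every read, thinned WT reads, both strands, other added values and other thresholds.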

Additional observations from a re-analysis of the deposited data

Results flagged for a closer look

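Clic6 had a log2 ratio of 1.75 in CAST-/129+ and -0.77 in CAST+/129-, on opposite sides of WT. Amot had 2.49 in CAST-/129+ and -0.75 in CAST+/129-. Both were noted because the clones with a single deletion moved in opposite directions, and the difference was not tested, as each clone has 1 library. Minus-strand alignments in the 15 kb before the deleted region stood at 447% of WT in CAST-/129+ (240 to 837), which was noted because this strand enters no comparison of genes. That value rests on 22 counts in WT and 24 in CAST-/129+.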

How the results depend on the processing

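No named gene past 3-fold changed sign under another scaling, read count or added value. With 1 in place of 4 added to FPKM, 427 genes were past 3-fold higher and 408 lower, and with 10 added 75 and 32. At 2-fold 384 were higher and 483 lower, and at 5-fold 56 and 16. Genes higher in CAST-/129+ and within 1.5-fold of WT in CAST-/129- numbered 9, but 4 with library sizes of all alignments, 32 with 1 added, 3 with 10 added, 42 at 2-fold and 2 at 5-fold. Those lower numbered 1, but 0 with library sizes of all alignments, 3 with every read, 13 with 1 added, 0 with 10 added, 28 at 2-fold and 0 at 5-fold. With under 3-fold in CAST-/129- in place of within 1.5-fold, a definition chosen after seeing the data, they numbered 38 and 32. Sox2 stood at 35.9% of WT with every read. The chromosome 8 median was -0.25 over genes of at least 20 FPKM, where the median of all chromosomes together was 0.07. Higher genes were 58.9% of the calls, 70.1% with 10 added, and 51.1% to 66.4% with 1 added or another scaling or read count, while at 2-fold lower genes outnumbered higher ones. No paired analysis was possible because each genotype has 1 library. Depth in CAST-/129+ limits genes of low level, and counting intervals do not cover clone or culture variation.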
